A study of Lolium arundinaceum with 6 samples.

Results

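A group of 33 unigenes in tall fescue leaves was at a low level after 2 h at 38 °C and higher again after 12 h at 38 °C. Their means at 12 h lay between 67.9 and 245% of the control mean, and 13 of the 33 were within 0.9 to 1.1 of it. A unigene is a gene-level group of transcripts from an assembly made without a reference genome. The 33 were chosen among 179680 unigenes by their level in all 6 libraries, in CPM, the count of a unigene scaled to the total of its library. Both controls had to hold at least 10 CPM, both 2 h libraries at most 0.5 of the lower control, and both 12 h libraries at least 0.75 of the lower control. The choice therefore used every contrast among the 3 conditions, and the levels of the members below are a description with no test.

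The plants were 10-day-old seedlings of the turfgrass variety Fire Phoenix II, labelled WT and grown with 16 h light and 8 h dark. Leaves of 1 control group at 23 °C and of plants kept at 38 °C for 2 h or 12 h gave 2 biological replicates each, and the same 2 controls serve both heat times. The controls are labelled 0 h, so hours of heat and time of day cannot be told apart. In whole leaves, fewer cells of a type and less RNA per cell cannot be told apart either.

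In heated plants, heat shock factors switch on the genes of chaperones, while many transcripts of ordinary growth and metabolism decline. A transcript's level depends on both its synthesis and its decay, and a sequencing library of total leaf RNA does not separate them. Plants held in heat also acclimate, and part of the early changes in transcript level are then reversed.

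Library totals lay between 6349776 and 7891567 counts, and 3 counts amount to between 0.38 and 0.472 CPM. Replicates of the 2 h heat group were less alike than the other replicate pairs. Over the 9030 unigenes used for this comparison, the standard deviation of the log2 difference between replicates was 0.505 at 2 h, 0.254 in controls and 0.247 at 12 h. All 9 unigenes taken as markers of leaf photosynthesis were detected, with summed levels of 12325 and 12423 CPM in controls, 9711 and 7849 CPM at 2 h, and 3825 and 3768 CPM at 12 h. The 10 markers of dividing cells, also all detected, summed to 71.3 and 72.6 CPM in controls, 64.1 and 74.9 CPM at 2 h, and 43.7 and 49.6 CPM at 12 h. The photosynthesis markers were lowest at 12 h, when the 33 unigenes were above their 2 h level, and the part of leaf composition in the pattern was not tested. Both sets of markers were picked by name, and names come mostly from unigenes the study called changed in these libraries. Their fall is therefore not independent evidence on leaf composition.

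Loss at 2 h was mostly followed by a low level at 12 h. Of 8056 unigenes with at least 10 CPM in both controls, 522 (6.48%) were at or below 0.5 of the lower control in both 2 h libraries. The 33 members are 6.32% of these 522. Among the other 489, the lower 12 h library stood between 0.5 and 0.75 of the lower control for 53 unigenes and under 0.5 for 436. The median member stood at 35.3% of its control mean at 2 h and at 96.3% at 12 h, against 32.6% and 19.3% for the other 489. The choice used both values, which split the sets at 12 h, so these medians are a description.

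**Figure D1:**
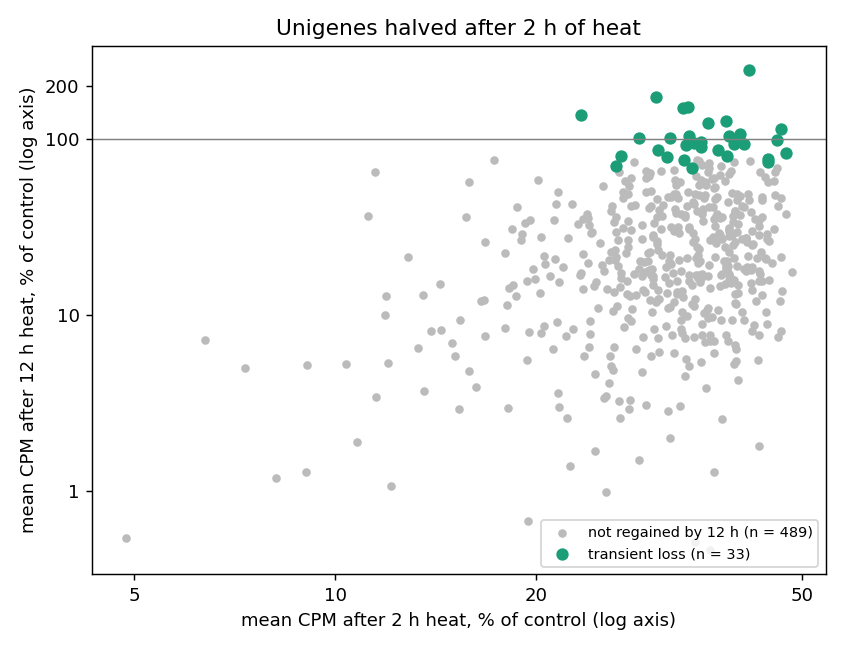
Mean CPM after 2 h heat (x axis) and after 12 h heat (y axis), each as % of the control mean on log axes, for the 522 unigenes at or below 0.5 of the lower control at 2 h. The 33 transient-loss unigenes (green) lie between 67.9 and 245% at 12 h, and the other 489 (grey) have a median of 19.3%.

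Together, the 33 unigenes summed to 3243 and 3062 CPM over the control libraries, 1108 and 1217 CPM at 2 h, and 2911 and 2761 CPM at 12 h. A single unigene, c154455_g1, held 25.8% of the summed control level. Without it the sums were 2403 and 2277 CPM in controls, 838 and 977 CPM at 2 h, and 2279 and 2118 CPM at 12 h. The rule sets this course for every member, so the sum without c154455_g1 had to follow it too and is no check.

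Levels at 2 h, in % of control, spanned a narrower range than those at 12 h. The rule sets an upper bound without a lower one at 2 h, and a lower bound without an upper one at 12 h. Mean levels at 2 h lay between 23.3 and 47.4% of control, with 4 members below 0.3 of control, 20 between 0.3 and 0.4, and 9 above 0.4. Mean levels at 12 h ran from 67.9 to 245% of control. Of the difference between control and 2 h, the members had regained between 51.2 and 349% at 12 h, with a median of 94.2%. Between 2 h and 12 h their mean CPM differed by 1.65-fold to 5.89-fold, with a median of 2.66-fold.

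At 12 h, 13 members had a mean within 0.9 to 1.1 of the control mean, 12 were below 0.9 and 8 above 1.1. Both 12 h libraries stood above both controls for 8 members and below both for 12, while the groups overlapped for 13. Over all 28005 unigenes tested, 38.8% stood above both controls at 12 h and 43.8% below both. These shares rest on CPM from library totals, and the bound at 12 h limits how far a member can lie below its controls.

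**Figure D2:**
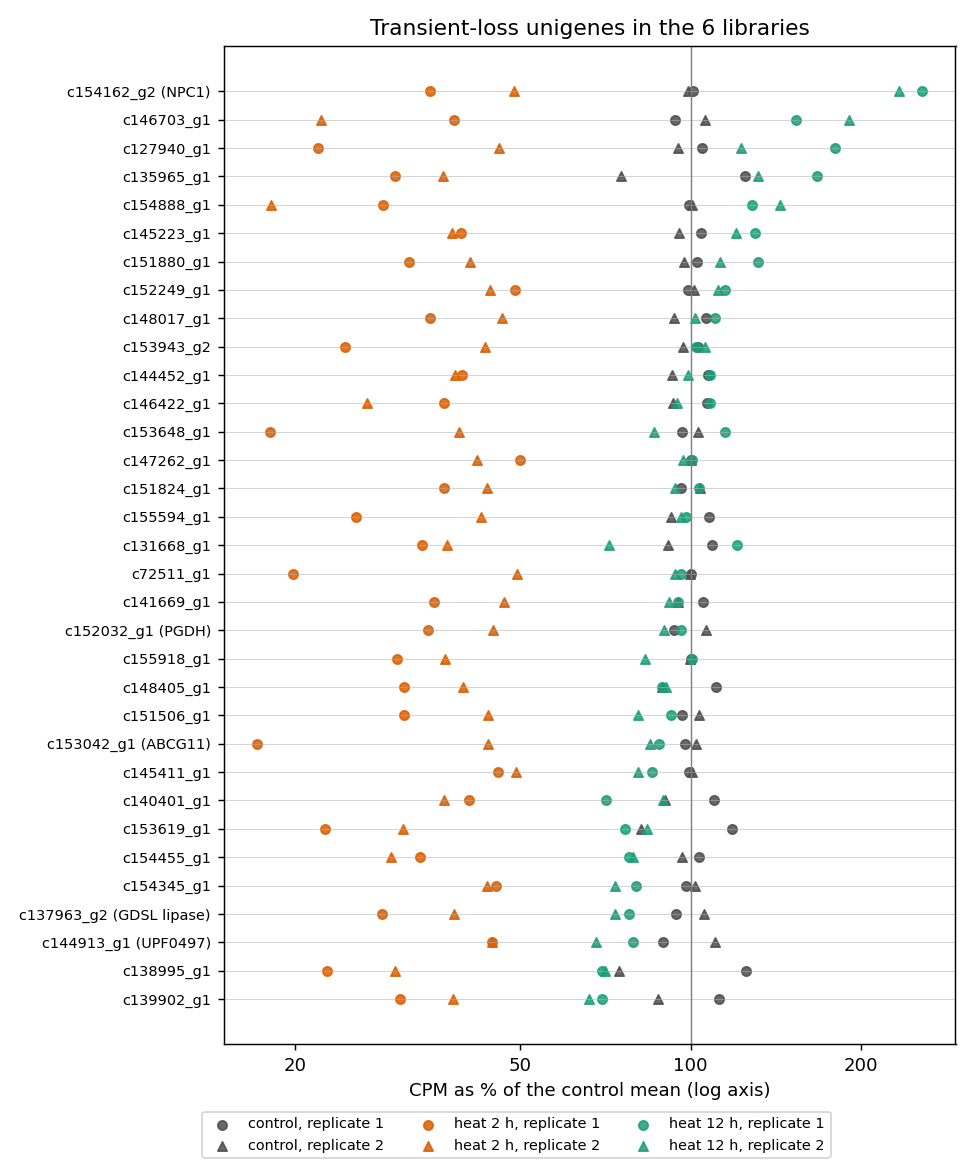
CPM of each of the 33 unigenes (rows) in the 6 libraries, as % of its control mean on a log axis, ordered by the 12 h level. Circles are replicate 1 and triangles replicate 2, and the row order runs from c154162_g2 at 245% of control to c139902_g1 at 67.9%.

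Only 5 of the 33 unigenes have a name in the study's tables used here, 28 do not. Names are those of the best Arabidopsis match. Of the 1778 unigenes with a usable name, 1397 come from rows whose match lies on Arabidopsis chromosome 1. Names also come mostly from unigenes that the study called changed. A missing name can thus have more than 1 reason, and nothing is read from it. Of the 522 unigenes low at 2 h, 94 are named. The 5 named members match a cuticle lipid transporter, an enzyme of serine synthesis, 2 lipid-hydrolysing enzymes and a membrane protein of uncharacterised family. They are described in that order.

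The unigene c153042_g1 matches ABCG11, an ATP-binding cassette transporter of the plasma membrane that exports wax and cutin precursors to the leaf surface in Arabidopsis. It stood at 97.8 and 102 CPM in controls, 17.1 and 43.8 CPM at 2 h, and 87.9 and 84.7 CPM at 12 h. Both 2 h libraries were far below all others, but they differed from each other by 2.56-fold, the largest gap between 2 h replicates among the 33. Mean levels were 30.4% of control at 2 h and 86.3% at 12 h, and both 12 h libraries lay under both controls.

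The match of c152032_g1 is PGDH, D-3-phosphoglycerate dehydrogenase, which starts the plastid pathway that makes serine from a glycolytic intermediate. Controls held 89.5 and 102 CPM, 2 h libraries 32.9 and 42.9 CPM, and 12 h libraries 92.0 and 85.8 CPM. Its 12 h range overlapped that of the controls, and it had regained 88.3% of the loss.

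NPC1 in Arabidopsis is non-specific phospholipase C1, which cleaves membrane phospholipids into diacylglycerol and a phosphorylated head group. Its match c154162_g2 had 31.0 and 30.3 CPM in controls, 10.6 and 14.9 CPM at 2 h, and 78.8 and 71.7 CPM at 12 h. This unigene did not stop at its starting level. With 245% of the control mean at 12 h it had the highest ratio of the 33, and its mean CPM was 5.89 times that at 2 h.

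A GDSL-like lipase, from a large family of plant esterases that act on lipids and other esters, is the match of c137963_g2. Levels were 86.5 and 96.8 CPM in controls, 26.1 and 35.0 CPM at 2 h, and 71.3 and 67.3 CPM at 12 h. At 12 h it stayed under both controls, at 75.6% of their mean.

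The fifth named unigene, c144913_g1, matches a protein of the UPF0497 family, membrane proteins related to those that scaffold the Casparian strip in roots. It held 62.4 and 77.0 CPM in controls, 31.1 and 31.0 CPM at 2 h, and 55.2 and 47.5 CPM at 12 h. Its mean stood at 44.6% of control at 2 h and at 73.6% at 12 h, and the difference of 1.65-fold between the heat times was the smallest of the 33. The 2 lipid-hydrolysing enzymes thus ended at opposite sides of the controls, and the other 3 named members ended within or below them.

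Among the unnamed members, 5 had the lowest 2 h level relative to control. The lowest, c154888_g1, had 16.1 and 16.2 CPM in controls, 4.61 and 2.93 CPM at 2 h, and 20.7 and 23.3 CPM at 12 h. It stood at 23.3% of control at 2 h and ended above both controls, at 136%. The next, c138995_g1, had controls of 228 and 136 CPM that differed by 1.68-fold, 2 h levels of 41.3 and 54.6 CPM, and 12 h levels of 127 and 128 CPM. Its 12 h libraries lay just under the lower control and far under the higher one.

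For c153619_g1 the controls also differed, with 67.6 and 46.8 CPM, while the 2 h libraries held 12.9 and 17.7 CPM and the 12 h libraries 43.7 and 47.9 CPM. The low-level unigene c153648_g1 had 11.7 and 12.4 CPM in controls, 2.18 and 4.68 CPM at 2 h, and 13.8 and 10.4 CPM at 12 h. Its 2 h libraries differed by 2.15-fold, and 17 counts were seen in the lower one, the fewest of any member in any library. The fifth, c146703_g1, is also among those with the highest level at 12 h. It stood at 17.3 and 19.5 CPM in controls, 7.04 and 4.10 CPM at 2 h, and 28.3 and 35.2 CPM at 12 h, which is 172% of control.

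Besides c154162_g2, c146703_g1 and c154888_g1, the highest 12 h levels relative to control were those of c127940_g1 and c135965_g1. The first held 20.8 and 18.9 CPM in controls, 4.35 and 9.07 CPM at 2 h, and 35.8 and 24.4 CPM at 12 h. The second held 50.6 and 30.5 CPM in controls, 12.2 and 14.8 CPM at 2 h, and 67.9 and 53.4 CPM at 12 h. Both ended above their 2 controls, at 152 and 150% of the mean, but the replicates of c127940_g1 differed by 2.09-fold at 2 h and those of c135965_g1 by 1.66-fold in controls.

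Control CPM among the members ran from 11.5 to 813, with a median of 40.9, and 8 of them had 100 CPM or more. CPM are not divided by transcript length, so this order is one of counts and not of transcript copies. The most counted, c154455_g1, had 841 and 785 CPM in controls, 270.1 and 240.4 CPM at 2 h, and 632.5 and 643 CPM at 12 h. Next came c145411_g1, with 403 and 408 CPM in controls, 185 and 199.6 CPM at 2 h, and 347 and 328 CPM at 12 h. In both, replicates lay close together and the 3 conditions did not overlap, with 12 h between 2 h and control.

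The unigene c151506_g1 had 185 and 198 CPM in controls, 59.7 and 84.0 CPM at 2 h, and 177 and 155 CPM at 12 h. Levels of c154345_g1 were 151 and 156 CPM in controls, 69.3 and 67.0 CPM at 2 h, and 123 and 113 CPM at 12 h. Of the 5 members with the highest control CPM, c138995_g1 included, all stayed below both controls at 12 h, at 70.1 to 86.5% of the control mean. That position rests on CPM from library totals. Scaling by TMM, described below, raises the 12 h levels, and c138995_g1 and c151506_g1 then overlap their controls.

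The other 3 members with 100 CPM or more in controls were named after their values were seen. The unigene c145223_g1 had 127 and 117 CPM in controls, 47.9 and 46.2 CPM at 2 h, and 159 and 147 CPM at 12 h. Levels of c151824_g1 were 131 and 142 CPM in controls, 50.02 and 59.5 CPM at 2 h, and 141 and 128 CPM at 12 h. In c147262_g1 both controls held 133 CPM, the 2 h libraries 66.3 and 55.6 CPM, and the 12 h libraries 134 and 129 CPM. The last 2 stood at 98.7% of the control mean each, with 1 of the 12 h libraries below both controls, and c145223_g1 reached 125%, with both libraries above.

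The weakest return was that of c139902_g1, with 22.1 and 17.2 CPM in controls, 6.01 and 7.46 CPM at 2 h, and 13.7 and 13.01 CPM at 12 h. It had regained 51.2% of the loss and stood at 67.9% of the control mean, and both 12 h libraries were under both controls. A control mean can exceed the lower control that the choice used, and 3 members stood below 0.75 of it at 12 h.

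Several members and non-members sit close to the bounds of the choice. Nearest to the control minimum, c153943_g2 had 11.2 CPM in its lower control and c153648_g1 had 11.7 CPM, while c155186_g1 and c132115_g2 were left out with 9.92 and 9.88 CPM. At the 2 h bound, the higher 2 h library was 0.499 of the lower control for c147262_g1 and for c144913_g1, against 0.522 for c147234_g1 and 0.523 for c143352_g1, which were left out. At the 12 h bound, the lower 12 h library was 0.75 of the lower control for c154345_g1 and 0.755 for c139902_g1, against 0.746 for c154314_g1 and 0.738 for c147005_g1. At the 2 h and 12 h bounds, a member and its nearest non-member thus differed by less than the gap between replicates of many members. That gap had a median of 1.30-fold at 2 h and 1.09-fold at 12 h. In controls its median was 1.101-fold, and the 11.2 and 9.92 CPM at the control bound lay further apart than that.

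Replicates at 2 h were the least even. They differed by more than 1.5-fold for 8 members at 2 h, 2 in controls and 1 at 12 h. In 22 of the 33 members the 2 h level was lower in replicate 1 than in replicate 2, and the same held for 5052 of all 8056 unigenes with at least 10 CPM in both controls (62.7%). Another member with a wide gap, c72511_g1, was singled out after its values were seen. It had 4.35 and 10.8 CPM at 2 h, 22.1 and 21.9 CPM in controls, and 21.2 and 20.6 CPM at 12 h.

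Membership depended on the libraries and on the scaling. With heat 2 h replicate 2 left out, 202 unigenes met the rule, and with heat 2 h replicate 1 left out 45 did, all 33 members among them in both cases. Heat 2 h replicate 2 thus kept more unigenes out than any other single library did. With CPM scaled by TMM, which corrects library totals for differences in composition, 72 unigenes met the rule, and with RLE size factors 87 did, again with all 33 among them. TMM factors were 0.993 and 0.986 in controls, 1.095 and 1.112 at 2 h, and 0.904 and 0.928 at 12 h, so that TMM lowers the 2 h levels and raises the 12 h levels relative to those from totals.

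**Figure D3:**
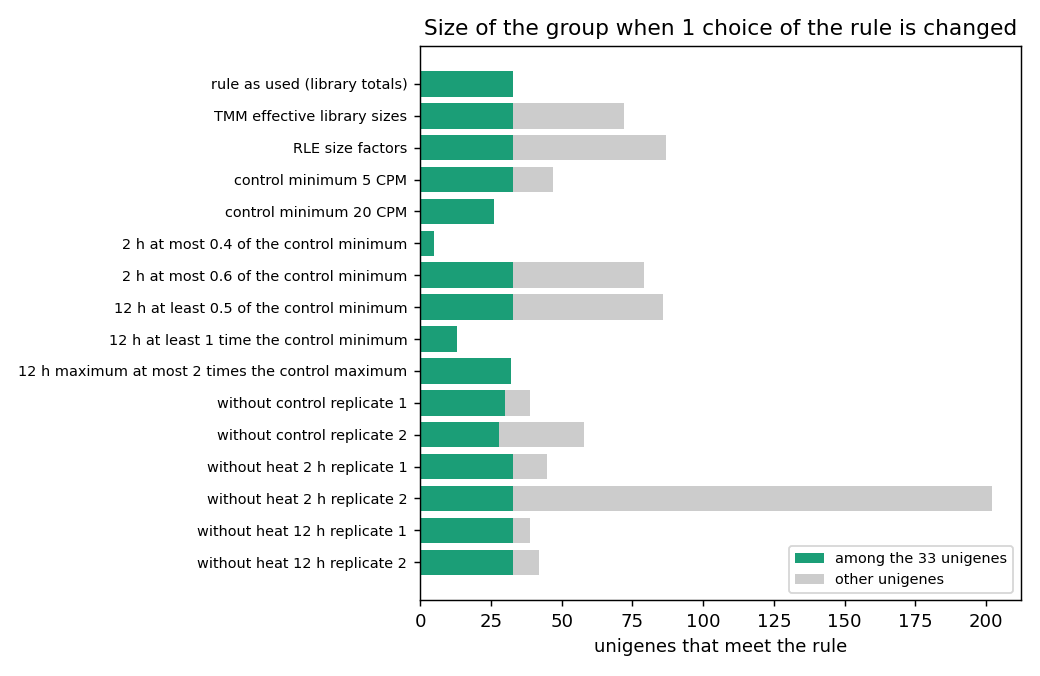
Number of unigenes that meet the rule (x axis) when 1 choice of it is changed (rows), split into those among the 33 (green) and others (grey). The bar without heat 2 h replicate 2 reaches 202 unigenes, and a 2 h bound of 0.4 leaves 5.

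The members were also placed in the fit of all 28005 unigenes tested, made with edgeR's quasi-likelihood test on all 6 libraries where a call needs a 2-fold or larger change with a Benjamini-Hochberg adjusted p of at most 0.05. At 2 h against control, 33 members were called lower, beside 8.98% of all unigenes, and none higher, beside 15.1%. At 12 h against control, c154162_g2 (NPC1) alone was called higher, beside 25.3% of all, and no member was called lower, beside 23.3%. At 12 h against 2 h, 32 members were called higher, beside 16.2%, and none lower, beside 19.6%. The member not called there, c144913_g1, had a log2 fold change of 0.99. These calls repeat contrasts that the choice used, and nothing is read from them. The median log2 fold change of the members was −1.65 at 2 h, 0.06 at 12 h and 1.68 at 12 h against 2 h, beside 0.05, 0.00 and −0.09 over all unigenes tested. The median at 12 h was close to 0 and changed sign to −0.05 with library totals alone. Scaling by library totals alone moved these medians over all unigenes to 0.20, −0.11 and −0.36. For c154162_g2 the log2 fold change was −1.42 (SE 0.20) at 2 h and 1.41 (SE 0.19) at 12 h.

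Unigenes next to the members in the assembly or in the annotation are described with their calls in the same fit. The rule ran over all unigenes, so each of these had failed a bound, and where only the 12 h bound was failed the 12 h level is fixed by the choice. Trinity, the assembler, numbers groups of overlapping transcripts as components, and 15 other unigenes share a component with one of 11 members. Reads can be shared between unigenes of 1 component, so their counts are uncertain. Of the 15, 9 had at most 12 counts over the 6 libraries and were not tested. The other 6 unigenes lie beside 5 members. At 2 h, 4 of the 6 were called lower and none higher, and at 12 h 3 were called lower, c145411_g2 among them, and none higher. In the direct comparison of 12 h with 2 h, 3 were called higher and 1 lower. Over all unigenes tested, 8.98% were called lower and 15.1% higher at 2 h, and 23.3% lower and 25.3% higher at 12 h. Between the heat times the shares were 16.2% higher and 19.6% lower. The count of 4 at 2 h was 3 with library totals alone and 3 with at least 10 counts in every library.

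The neighbour of the NPC1 match, c154162_g1, went in the same order across the conditions as its member. It stood at 99.9 and 97.8 CPM in controls, 60.1 and 63.2 CPM at 2 h, and 164 and 148 CPM at 12 h, and the 3 conditions did not overlap. Its log2 fold change was 1.60 (SE 0.15, edgeR quasi-likelihood adjusted p = 1.21e-05) at 12 h against 2 h. Against control it was −0.83 (SE 0.15) at 2 h and 0.77 (SE 0.15) at 12 h, both under the fold threshold, with edgeR adjusted p = 0.00135 and 0.000846.

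Both neighbours of c145411_g1 were called lower at 2 h, and their levels at 12 h are a description. The more counted, c145411_g2, had 487 and 491 CPM in controls, 168 and 169 CPM at 2 h, and 212 and 206 CPM at 12 h. It met the bounds for control and 2 h, and its level at 12 h, 42.7% of control, is what left it out. The other, c145411_g3, had 21.9 and 26.6 CPM in controls, 6.40 and 16.8 CPM at 2 h, and 31.0 and 26.9 CPM at 12 h. It rose between 2 h and 12 h by 1.60 on the log2 scale (SE 0.33, edgeR adjusted p = 0.00202), and its 2 h replicates differed more than its controls did. Its call at 2 h, with a log2 fold change of −1.23 (SE 0.33), averages these 2 uneven libraries. The higher of them stood at 0.769 of the lower control.

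The neighbour of c153619_g1, c153619_g2, was lowly counted, with 4.10 and 3.55 CPM in controls, 0.128 and 1.02 CPM at 2 h, and 1.80 and 1.80 CPM at 12 h. It was called lower at 2 h, and its 12 h level exceeded the 2 h level by 1.94 log2 units (SE 0.66, edgeR adjusted p = 0.0304). That call was lost without heat 2 h replicate 1 (adjusted p = 0.161), without either heat 12 h replicate, with library totals alone and with DESeq2. Outside the naming rule, c140401_g2 was called lower at both heat times, at 49.9 and 23.1% of control. In c152249_g2 the 12 h libraries held 0 and 3 counts, which is 5.05% of the control level (95% exact counting interval 1.01 to 15.5%). Its member c152249_g1 stood at 12.1 and 12.4 CPM in controls, 6.01 and 5.41 CPM at 2 h, and 14.1 and 13.7 CPM at 12 h, so this neighbour and its member went apart at 12 h.

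Among the annotated members, the ABCG11 match alone shares its best match with other unigenes, of which there are 3. All 3 were called lower at 2 h, beside 8.98% of all unigenes tested, and 2 were called lower at 12 h, beside 23.3%. None was called higher at 12 h than at 2 h, beside 16.2%. Names come mostly from unigenes that the study called changed in these libraries. An unchanged unigene with this match would mostly have no name here, so these counts are not independent evidence. These counts were sensitive to single libraries. Without control replicate 2, 1 was called lower at 2 h and 1 at 12 h, without control replicate 1 it was 1 at 12 h, and without heat 12 h replicate 2 it was 0 at 12 h. The most counted, c153732_g1, had 120 and 116 CPM in controls, 32.8 and 54.3 CPM at 2 h, and 74.3 and 66.4 CPM at 12 h. Its 12 h libraries lay between those of 2 h and control, at 59.6% of control, and this level alone left it out of the 33. Between the heat times c153732_g1 had a log2 fold change of 0.96 (SE 0.21), just under the 2-fold threshold. With no minimum fold change it was called higher at 12 h than at 2 h.

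The others were c151362_g1, with 7.87 and 8.87 CPM in controls, 3.58 and 4.10 CPM at 2 h, and 3.91 and 2.49 CPM at 12 h, and c141723_g1. The latter had 2.21 and 1.90 CPM in controls, 0.64 and 0.439 CPM at 2 h, and 0.752 and 0 CPM at 12 h, where 0 counts allow up to 0.415 CPM. Of the 4 unigenes matched to ABCG11, the member alone met the bound at 12 h, which the choice fixed.

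**Figure D4:**
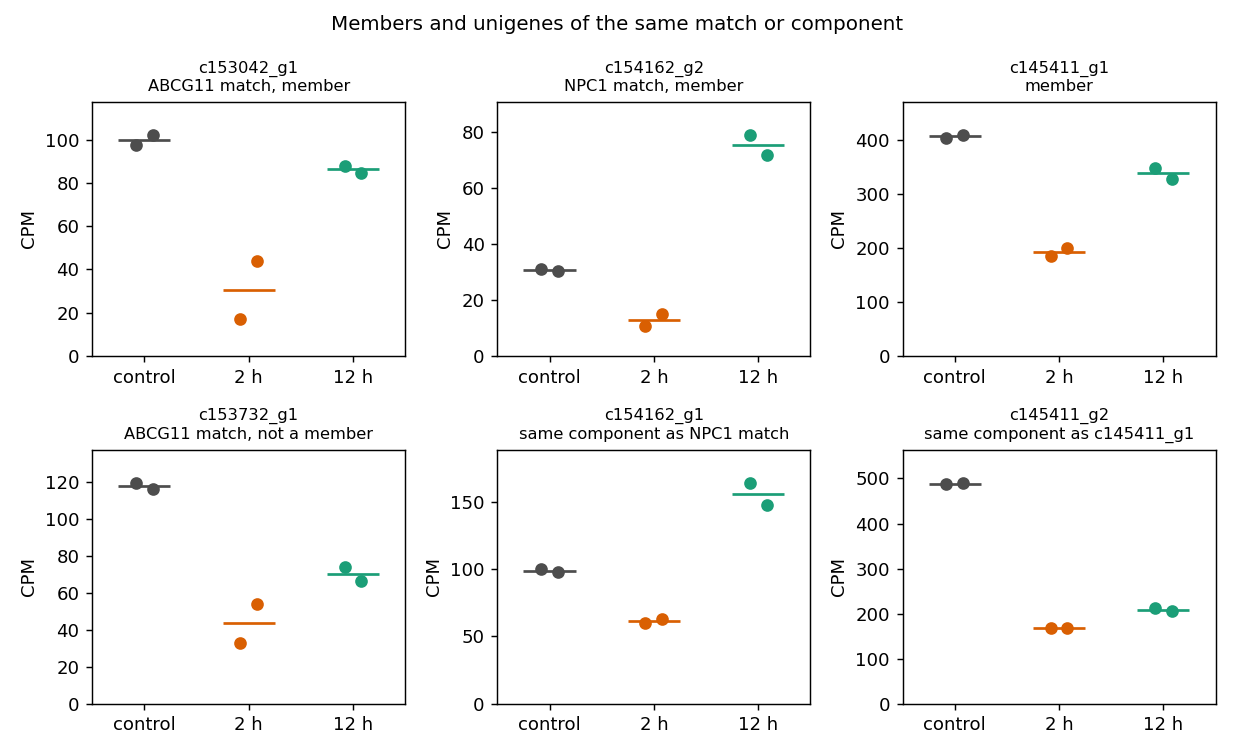
CPM per library (points) and mean (bars) in control, 2 h and 12 h for the members c153042_g1, c154162_g2 and c145411_g1 (top) and for 1 neighbour of each (bottom). At 12 h the neighbour c154162_g1 lies at 148 and 164 CPM, above its controls, while c153732_g1 and c145411_g2 lie below theirs.

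Other genes of the pathways were counted from lists built by annotation words and pathway bins, with the members included. The lists come mostly from unigenes that the study called changed in these libraries, and their counts are not independent evidence. Beside them, 8.98% of all unigenes tested were called lower and 15.1% higher at 2 h, and 23.3% lower and 25.3% higher at 12 h. Of 97 membrane transporters tested, to which the ABCG11 match belongs, 52 were called lower and 12 higher at 2 h, and 60 lower and 19 higher at 12 h. Among the 52, 34 were also called lower at 12 h, 17 were not called and 1 was called higher, and 11 were called higher at 12 h than at 2 h. The median log2 fold change of the list was −1.19 at 2 h and −1.40 at 12 h.

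Of 65 lipid metabolism unigenes, which hold the matches of NPC1 and of the GDSL lipase, 25 were called lower and 10 higher at 2 h, and 32 lower and 18 higher at 12 h. Among the 25, 14 were also called lower at 12 h, 10 were not called and 1, the NPC1 match, was called higher, and 5 were called higher at 12 h than at 2 h. Cell wall and cuticle unigenes, with 35 tested and no member, had 11 called lower and 4 higher at 2 h, and 17 lower and 11 higher at 12 h.

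The PGDH match is in the lists of carbohydrate metabolism and of chloroplast and photosynthesis. Of 44 carbohydrate unigenes, 16 were called lower and 8 higher at 2 h, and 21 lower and 14 higher at 12 h. Among the 16, 10 were also called lower at 12 h, 5 were not called and 1 was called higher, and 3 were called higher at 12 h than at 2 h. Of 39 chloroplast unigenes, 17 were called lower and 3 higher at 2 h, and 18 lower and 13 higher at 12 h. Among the 17, 10 were also called lower at 12 h and 7 were not called, and 1 was called higher at 12 h than at 2 h. Over all 28005 unigenes tested, 2514 were called lower at 2 h. At 12 h, 1658 of these were called lower, 832 were not called and 24 were called higher, and 417 of the 2514 were called higher at 12 h than at 2 h.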

How the data were processed

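RNA-seq counts of 6 leaf libraries were used. According to the paper's methods, the authors assembled reads with Trinity and estimated expected counts with RSEM, while the submitters' processing notes name Bowtie2 2.2.3, TopHat2 2.0.12 and HTSeq 0.6.1. The deposited values are expected counts without scaling, 0.157% of them not whole, and were rounded. CPM in the text are counts over library totals. edgeR 4.0.16 (R 4.3.3) fitted all 6 libraries after filterByExpr (minimum count 10) and TMM, with quasi-likelihood F tests, 3 residual degrees of freedom and Benjamini-Hochberg adjustment over 28005 unigenes, which held 97.7 to 98.4% of counts. P-values measure only the spread between these libraries. The study's thresholds were used. Scripts were tested on simulated data. Best matches were used at an E-value of at most 1e-05.

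The members and lists were chosen with earlier results of these data known. Named are all annotated members, the 5 with the lowest 2 h level, the highest 12 h level or the highest control CPM, those nearest each bound, and neighbours of named members. Alternatives were RLE factors, library totals, other filters, DESeq2 1.42.0, only the 4 libraries compared, a replicate block, other thresholds, other bounds, and each library left out. One unigene is not reported here. Sequences of the unigenes were not used here.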

Additional observations from a re-analysis of the deposited data

Results flagged for a closer look

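Unigenes that share an assembly component with a member were compared between the 2 heat times, and 4 of the 6 tested were called by edgeR's quasi-likelihood test. Of these 4, 3 were higher at 12 h, beside 16.2% of all unigenes tested, and 1 lower, beside 19.6%. Reads can be shared between unigenes of 1 component, so a neighbour's counts may include reads of its member. Beside the NPC1 match, the 12 h level of c154162_g1 exceeded its 2 h level by 1.60 log2 units (SE 0.15). Beside c145411_g1, c145411_g3 was also higher by 1.60 (SE 0.33), with 2 h replicates of 6.40 and 16.8 CPM. Beside c153619_g1, c153619_g2 was higher by 1.94 (SE 0.66), from 0.128 and 1.02 CPM at 2 h. In the other direction, c152249_g2 had a fitted log2 fold change of −2.99 (SE 0.78) at 12 h against 2 h, from 3 summed counts at 12 h, which is 9.90% of the 2 h level with a 95% exact counting interval of 1.94 to 31.6%. The calls of c154162_g1 and c145411_g3 held under every alternative run. That of c153619_g2 was lost with library totals alone (adjusted p = 0.0565), with DESeq2 (adjusted p = 0.0568), and without heat 2 h replicate 1, heat 12 h replicate 1 or heat 12 h replicate 2 (edgeR adjusted p = 0.161, 0.0871 and 0.0806), so that 2 component neighbours were called higher there. That of c152249_g2 was lost without heat 12 h replicate 1 (edgeR adjusted p = 0.0595). With at least 10 counts in every library, these 2 low unigenes were not tested.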

How the results depend on the processing

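The number of unigenes that met the rule was 33, and 72 with TMM sizes, 87 with RLE factors, 5 and 79 with a 2 h bound of 0.4 and 0.6, and 86 and 13 with a 12 h bound of 0.5 and 1. Without 1 library it ran from 39 to 202. Without control replicate 1, 30 of the 33 remained, and without control replicate 2, 28 did. With at least 10 counts in every library, which tests fewer unigenes, calls numbered 3262 at 2 h, 6010 at 12 h and 4216 between the heat times, against 6750, 13609 and 10028. The median log2 fold change of the members between the heat times was 1.68, and 1.41 with library totals alone, 1.55 with that filter, and 1.53 to 1.81 without 1 library. With no minimum fold change 6 members, not 1, were called higher at 12 h, and without 1 library 1 to 2. Among the ABCG11-matched neighbours, those called lower at 12 h numbered 2, and 1 with the filter or with DESeq2, and 0 to 2 without 1 library. Those called lower at 2 h numbered 3, and 1 to 3 without 1 library. Those higher at 12 h than at 2 h numbered 0, and 1 with RLE factors, DESeq2 or no minimum fold change, and 0 to 1 without 1 library. The count of 0 was also 0 at an unadjusted p. With library totals alone, no filter beyond 1 count, the 10-count filter, DESeq2 or a replicate block, the ABCG11-matched neighbours called lower at 2 h numbered 2. Causes were not tested. Members called lower at 2 h stayed at 33 and called lower at 12 h at 0 under every alternative that kept both replicates of a group, DESeq2 and an unadjusted p included. The choice used these contrasts, so both counts were largely set in advance and nothing is read from them. Of all calls, 62.8% were higher at 2 h and 45.1% at 12 h in the comparison of the heat times, and 73.2% and 30.9% with library totals alone. With library totals, transporters called higher at 12 h than at 2 h numbered 9 against 16, lipid unigenes 10 against 16 and cell wall and cuticle unigenes 5 against 10. Replicate numbers did not pair the libraries, with correlations of same-numbered deviations between −0.0505 and 0.0456, and with a replicate block calls numbered 6340 at 2 h, 13283 at 12 h and 9611 between the heat times. The members' median log2 fold change at 12 h against control, 0.06, was −0.05 with library totals alone and −0.01 to 0.19 without 1 library. Among counts over lists, 30 moved by over 1.5 times and 420 did not. The fold threshold of 2 keeps smaller differences with a low adjusted p out of the calls.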

Other observations

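With TMM sizes in place of library totals, 39 further unigenes met the rule, and 3 of them have a name in the tables used. The match of c136537_g1 is a copper amine oxidase, from a family that breaks down polyamines. It held 486 and 429 CPM in controls, 167 and 235 CPM at 2 h, and 359.6 and 346 CPM at 12 h, in CPM from library totals. A mannose-binding lectin is the match of c138452_g1, with 15.6 and 12.4 CPM in controls, 4.99 and 4.68 CPM at 2 h, and 8.87 and 10.5 CPM at 12 h. The match of c149384_g1 is an ATP-binding protein of the ABC transporter type, with 54.0 and 54.7 CPM in controls, 18.3 and 29.0 CPM at 2 h, and 38.9 and 40 CPM at 12 h. All 3 lay between their 2 h and control levels at 12 h, with no overlap between the conditions. These unigenes were selected by their values, and no test applies.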
